A study of Homo sapiens with 6 samples.

Results

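The genes described here are 10 factors of chromatin, DNA methylation and the nuclear lamina, grouped as linked to DNA replication. They are *DNMT1* and *UHRF1*, *EZH2*, *CHAF1A*, *CHAF1B* and *ASF1B*, *LMNB1*, *SUV39H1*, *HELLS* and *H2AZ1*. They were chosen by symbol, with earlier results of these data known, and are 10 of the 58676 gene identifiers in the deposited count table. RNA-Seq was done on MRC5 cells, which are human lung fibroblasts, after 24 h in conditioned media (CM) from ATII cells. The ATII cells are a human alveolar type II epithelial line engineered to respond to 4-hydroxytamoxifen (4-OHT). In 3 libraries the CM came from untreated ATII cells (control ATII CM) and in 3 from cells given 4-OHT (4-OHT ATII CM), so every fibroblast library received medium from the same engineered epithelial line. The fibroblasts themselves had no transgene named in the labels. None of the 6 libraries came from fibroblasts given 4-OHT without epithelial CM, so drug carried over in the medium and products of the epithelial cells cannot be told apart. Nothing states that the replicates were separate cultures, and the p values below measure only the spread between these samples.

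Each time DNA is copied, nucleosomes are taken apart ahead of the fork and rebuilt behind it, and the marks they and the DNA carry must be set again on the new strands. UHRF1 binds hemimethylated DNA and brings in DNMT1, the maintenance methyltransferase, while the CAF-1 complex (CHAF1A and CHAF1B) takes new H3 and H4 from ASF1 chaperones and deposits them at the fork. EZH2 and SUV39H1 write the repressive marks of Polycomb and heterochromatin, HELLS is a remodeler needed for DNA methylation of repeats, H2AZ1 encodes the H2A.Z variant histone, and lamin B1 lines the nuclear envelope. Many of these genes are known to be transcribed more strongly in dividing cells.

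All 10 genes had lower mean levels in fibroblasts given 4-OHT ATII CM, and 8 of them passed the test. *ASF1B* and *LMNB1* fell most, with log2 fold changes of -0.57 and -0.52, followed by *HELLS* and *EZH2* with -0.42 and -0.36. *CHAF1A*, *UHRF1*, *DNMT1* and *H2AZ1* fell by less, with log2 fold changes of -0.29, -0.28, -0.20 and -0.15. *SUV39H1* and *CHAF1B* had log2 fold changes of -0.39 and -0.27 that did not pass. Genes were called differentially expressed (DEGs) at an adjusted p below 0.05 in edgeR's quasi-likelihood test over all 19072 genes with at least 10 counts, of which 5.72% were called in either direction, 2.76% lower and 2.95% higher. In each of the 10 genes the 3 values in 4-OHT ATII CM all lay under the 3 in control ATII CM, a separation found in 22.1% of all tested genes in either direction and in 10.4% in this direction. The median log2 fold change of the 10 genes was -0.33, beside -0.002 over all tested genes, of which 50.5% were lower. In such bulk libraries, fewer cells that express these genes and less RNA per cell cannot be told apart. The count of 8 was 4 without control replicate 3 and 5 without 4-OHT replicate 2. These 2 fits called 672 and 535 of all tested genes, beside 1090 in the main fit. All 10 log2 fold changes stayed below 0 in every fit tried.

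**Figure D1:**
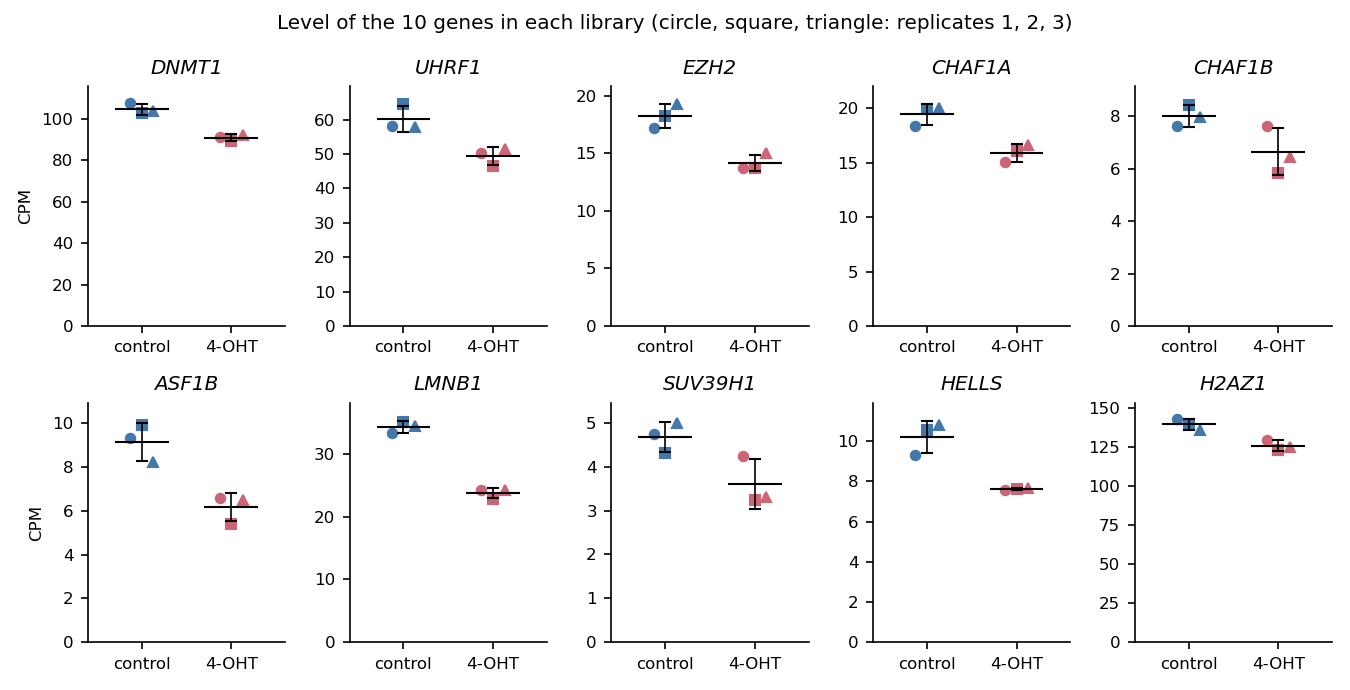
Level of each of the 10 genes, in counts scaled to library size (CPM, y axes from 0), in the 3 libraries of control ATII CM (blue) and of 4-OHT ATII CM (red), with the mean as a line and the SD as bars. In every panel the 3 red points lie below the 3 blue points, with a narrow gap for *CHAF1B* (7.63 against 7.64 CPM) and *SUV39H1* (4.25 against 4.31 CPM).

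Library totals ranged from 17691849 to 26389449 counts, and the square root of the common dispersion was 4.36%. The first principal component, with 43.4% of the variance, separated the groups, and the second, with 23.3%, set control replicate 2 apart; without that library the number of the 10 genes called was still 8. The fibroblast identity of the cells was checked with markers. All 10 fibroblast markers were counted, with a sum of 41095 to 44612 CPM in control ATII CM and 42969 to 44711 CPM in 4-OHT ATII CM. Of 14 epithelial markers, 6 reached 10 counts over all libraries, and the list summed to 92.5 to 98.3 CPM in control ATII CM and to 90.1 to 96.4 CPM in the other group, most of it from the keratins *KRT18*, *KRT8* and *KRT19*, with 7083, 4481 and 954 counts over the 6 libraries. *SFTPA1*, *NKX2-1* and *ESRP1* were at 0, *CDH1* had 4 counts in all and *EPCAM* had 48.

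Promoter windows of RefSeq (GRCh38.p14, 250 bases before to 50 after each start) were searched on both strands for 3 motifs known from genes transcribed in the cell cycle, since the 10 genes moved the same way. For the 10 genes there were 15 windows among 34943 in all. The E2F motif, written as TTTCCCGC, TTTCGCGC, TTTGCCGC or TTTGGCGC, was found in *DNMT1*, *UHRF1*, *HELLS* and *EZH2*, in 5 of the 15 windows, beside 3.3% of all windows (4 of the 10 genes, beside 3.97% of all 27167 genes with a window). Of the 11 relatives of the 10 genes described further on, 3 hold it (*EZH1*, *HIRA* and *LMNA*). The CHR element, written as TTTGAA or TTCGAA, was found in *ASF1B* and *H2AZ1*, which is 2 of the 10 genes, in 4 of the 11 relatives (*DNMT3A*, *H2AZ2*, *LMNB2* and *SUV39H2*) and in 19.6% of all genes. A match describes the letters of a window and is not evidence of binding. The matches are shown here for the 6 genes that hold one, as 30 bases on the strand of the gene, with the motif in capitals (a run such as GCGCGAAA is a motif read on the other strand):
*DNMT1* (chr19:10194937-10194966, minus strand): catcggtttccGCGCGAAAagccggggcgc
*UHRF1* (chr19:4909476-4909505, plus strand): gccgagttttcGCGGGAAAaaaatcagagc
*UHRF1* (chr19:4909973-4910002, plus strand): cccgagcccgaTTTCGCGCgccctgagttc
*HELLS* (chr10:94545701-94545730, plus strand): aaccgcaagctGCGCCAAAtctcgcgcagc
*HELLS* (chr10:94545769-94545798, plus strand): gatgacaggatTTTCCCGCgaaggagaagc
*EZH2* (chr7:148884272-148884301, minus strand): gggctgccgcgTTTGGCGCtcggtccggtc
*ASF1B* (chr19:14136599-14136628, minus strand): ggaggccggctaTTTGAAggcggcgcgcgg
*H2AZ1* (chr4:99950254-99950283, minus strand): gagacagcgcagTTTGAAtcgcggtgcgac

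The CCAAT box, searched as CCAAT on both strands, was found in 8 of the 10 genes, all but *DNMT1* and *CHAF1B*, in 4 of the 11 relatives (*ASF1A*, *DNMT3B*, *H2AZ2* and *LMNA*) and in 39.76% of all genes. By window, 9 of the 15 held one, beside 34.65% of all windows. The windows follow RefSeq starts and some lie within the span of the gene in the deposited table: the window of *HELLS* and the one of *LMNB1* that holds its box are exonic over all 300 bases, and the windows at the deposited starts of *LMNB1* and *SUV39H1* hold 0 boxes. Stretches upstream of a RefSeq start and outside annotated exons are shown for *CHAF1A*, *EZH2* and *ASF1B*, which fell and hold 4, 4 and 3 boxes in their windows (1 box of *EZH2* lies beyond the stretch, and that of *ASF1B* lies inside the longer span of the gene in the deposited table). Capitals mark each box (ATTGG is a box on the other strand), and at one place in *CHAF1A* a box on each strand overlap as CCAATTGG:
*CHAF1A* (chr19:4402390-4402639, plus strand): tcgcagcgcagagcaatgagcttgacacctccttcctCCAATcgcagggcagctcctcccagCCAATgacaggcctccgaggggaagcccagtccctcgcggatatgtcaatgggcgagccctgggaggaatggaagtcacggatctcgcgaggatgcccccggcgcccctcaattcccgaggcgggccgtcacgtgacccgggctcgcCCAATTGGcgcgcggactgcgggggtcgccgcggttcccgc
*EZH2* (chr7:148884322-148884541, minus strand): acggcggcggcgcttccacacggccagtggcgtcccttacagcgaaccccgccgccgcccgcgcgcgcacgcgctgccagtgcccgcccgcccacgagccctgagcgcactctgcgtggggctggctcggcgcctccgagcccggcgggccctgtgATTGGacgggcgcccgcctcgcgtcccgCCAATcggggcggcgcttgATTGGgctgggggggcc
*ASF1B* (chr19:14136614-14136839, minus strand): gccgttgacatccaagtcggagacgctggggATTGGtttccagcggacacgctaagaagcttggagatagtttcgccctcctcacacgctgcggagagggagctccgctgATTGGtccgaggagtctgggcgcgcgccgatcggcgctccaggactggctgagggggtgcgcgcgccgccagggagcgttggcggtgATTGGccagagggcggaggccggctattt

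The genes of maintenance methylation, *DNMT1*, *UHRF1* and *HELLS*, all fell. *DNMT1* (ENSG00000130816, chr19:10133345-10231286, minus strand, GRCh38) was at 108, 103 and 104 CPM in control ATII CM and at 91.4, 89.4 and 92.5 CPM in 4-OHT ATII CM. The groups did not overlap, and the gap between them was wider than the spread within either. *DNMT1* fell by 13.2%, with a log2 fold change of -0.20 (SE 0.037, edgeR adjusted p = 0.00363). *UHRF1* (ENSG00000276043, chr19:4903080-4962154, plus strand), which recognizes the methylated parent strand, was at 58.2, 64.5 and 57.7 CPM in control ATII CM and at 50.2, 46.6 and 51.4 CPM in 4-OHT ATII CM. It was highest in control replicate 2, and its groups did not overlap. *UHRF1* fell by 17.7%, with a log2 fold change of -0.28 (SE 0.051, edgeR adjusted p = 0.00339). Both kept their call in each of the 14 alternative fits, with edgeR, DESeq2 or limma adjusted p values of at most 0.0336 for *DNMT1* and 0.0323 for *UHRF1*. *HELLS* (ENSG00000119969, chr10:94501434-94613905, plus strand), the remodeler that helps methylation reach packed DNA, was at 9.28, 10.5 and 10.8 CPM in control ATII CM and at 7.58, 7.62 and 7.69 CPM in 4-OHT ATII CM. The 3 lower values lay close together, and control replicate 1 was the lowest of its group. *HELLS* fell by 25.1%, with a log2 fold change of -0.42 (SE 0.093, edgeR adjusted p = 0.0138). Its adjusted p in edgeR was 0.0816 without control replicate 3, 0.0587 without 4-OHT replicate 2 and 0.0521 without 4-OHT replicate 3.

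The chaperones that load new H3 and H4 at the fork were lower as a set of 3, of which 2 passed. *CHAF1A* (ENSG00000167670, chr19:4402662-4445018, plus strand), the large subunit of CAF-1, was at 18.4, 19.9 and 20.1 CPM in control ATII CM and at 15.0, 16.0 and 16.7 CPM in 4-OHT ATII CM. Its groups did not overlap, and it fell by 18.1%, with a log2 fold change of -0.29 (SE 0.071, edgeR adjusted p = 0.0245). Its adjusted p in edgeR was 0.112 without control replicate 3, 0.0991 without 4-OHT replicate 1 and 0.0806 without 4-OHT replicate 2. *CHAF1B* (ENSG00000159259, chr21:36385378-36419015, plus strand), the middle subunit, was at 7.64, 8.45 and 7.99 CPM in control ATII CM and at 7.63, 5.85 and 6.47 CPM in 4-OHT ATII CM. The first replicates of the groups almost met, and the log2 fold change of -0.27 (SE 0.11, edgeR adjusted p = 0.21) was close to that of *CHAF1A* with a wider error. *ASF1B* (ENSG00000105011, chr19:14119509-14136956, minus strand), the ASF1 copy of proliferating cells, was at 9.32, 9.91 and 8.21 CPM in control ATII CM and at 6.58, 5.41 and 6.47 CPM in 4-OHT ATII CM. Every control value was above every 4-OHT value. *ASF1B* fell by 32.6%, the largest fall of the 10, with a log2 fold change of -0.57 (SE 0.11, edgeR adjusted p = 0.00579), and was called in all 14 alternative fits.

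Of the genes that write repressive histone marks, *EZH2* passed the test and *SUV39H1* did not. *EZH2* (ENSG00000106462, chr7:148807383-148884321, minus strand), the catalytic subunit of Polycomb repressive complex 2, was at 17.2, 18.3 and 19.2 CPM in control ATII CM and at 13.7, 13.7 and 15.0 CPM in 4-OHT ATII CM. The groups did not overlap. *EZH2* fell by 22.3%, with a log2 fold change of -0.36 (SE 0.074, edgeR adjusted p = 0.00724), and its edgeR adjusted p was 0.0501 without control replicate 3. *SUV39H1* (ENSG00000101945, chrX:48695554-48709012, plus strand), which methylates lysine 9 of H3 in heterochromatin, was at 4.73, 4.31 and 4.99 CPM in control ATII CM and at 4.25, 3.25 and 3.31 CPM in 4-OHT ATII CM. The highest 4-OHT library came close to the lowest control library. With 552 counts over the 6 libraries it was the most thinly counted of the 10 genes, and its log2 fold change of -0.39 (SE 0.14) had an edgeR adjusted p of 0.155. *SUV39H1* and *CHAF1B* were called in 0 of the 14 alternative fits, with adjusted p values (edgeR, DESeq2 or limma) from 0.0785 to 0.403 and from 0.096 to 0.497.

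Lamin B1 and H2A.Z, components of the nuclear envelope and of the nucleosome, both passed the test. *LMNB1* (ENSG00000113368, chr5:126776623-126837020, plus strand) was at 33.2, 35.1 and 34.3 CPM in control ATII CM and at 24.2, 22.9 and 24.2 CPM in 4-OHT ATII CM. The groups were far apart compared with the spread inside each. *LMNB1* fell by 30.5%, with a log2 fold change of -0.52 (SE 0.053, edgeR adjusted p = 3.01e-05), and ranked 15 by p among the genes that were lower. Its largest adjusted p over the 14 alternative fits was 0.000665. *H2AZ1* (ENSG00000164032, chr4:99948086-99950388, minus strand), the most abundant of the 10, was at 143, 139 and 136 CPM in control ATII CM and at 129.6, 123 and 125 CPM in 4-OHT ATII CM. Its groups did not overlap but lay closest in proportion among the 8 DEGs. *H2AZ1* fell by 9.76%, with a log2 fold change of -0.15 (SE 0.037, edgeR adjusted p = 0.0275). Its edgeR adjusted p was 0.109 without control replicate 1, 0.0501 without control replicate 3, 0.135 without 4-OHT replicate 2 and 0.13 without 4-OHT replicate 3.

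Per length of merged exons, the order of the 10 levels in FPKM (CPM divided by exon length in kilobases) was the same in both media. *H2AZ1* led with 60.5 ± 1.4 FPKM (SD, n = 3) in control ATII CM and 54.6 ± 1.5 FPKM in 4-OHT ATII CM. *UHRF1*, *DNMT1* and *LMNB1* followed with 11.7 ± 0.74, 10.7 ± 0.27 and 9.41 ± 0.25 FPKM in control ATII CM. Then came *CHAF1A*, *EZH2* and *ASF1B* between 3.97 and 4.53 FPKM, and *CHAF1B*, *SUV39H1* and *HELLS* between 1.00 and 1.57 FPKM. Neighbours in the order had separate ranges over the libraries except *EZH2* and *ASF1B* in control ATII CM, and *UHRF1* with *DNMT1* and *CHAF1B* with *SUV39H1* in 4-OHT ATII CM. *HELLS* came last on this scale with the longest merged exons of the 10, at 10148 bases. Exons of 7 of the 10 genes overlap those of other annotated genes, and the library kit named in the labels does not mark the strand of the reads, so overlaps on either strand bear on the counts. The longest was that of *SUV39H1*, with 685 bases (20.3% of its exon length), followed by *HELLS* with 438 bases (4.32%) and *H2AZ1* with 223 bases shared with the antisense *H2AZ1-DT* (9.68%). The overlapping genes of *SUV39H1* and *HELLS* had 1 count each and *H2AZ1-DT* had 13 in all. Partners with more counts shared fewer bases: *CHAF1B* shares 89 bases with *MORC3* (1.74%), *DNMT1* 83 with *S1PR2* (0.847%) and *CHAF1A* 20 with *UBXN6* (0.465%). How reads in such stretches were counted is not given in the sources used here.

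Most of these factors were set beside a gene of the same family or of a related step, called a relative here. In all, 11 such pairs were compared, and the 2 genes of a pair need not do the same step. Of the 11 relatives, *LMNB2* and *LMNA* passed the test, both lower, beside 2.76% of all tested genes called lower and 5.72% in either direction. *LMNB2* (lamin B2) fell from 207 ± 15 to 176 ± 6.4 CPM (log2 fold change -0.23, SE 0.047, edgeR adjusted p = 0.00706) and *LMNA* (lamins A and C) from 757 ± 46 to 679.7 ± 5.5 CPM (log2 fold change -0.16, SE 0.038, edgeR adjusted p = 0.0220). The call of *LMNB2* was lost without 4-OHT replicate 2 (adjusted p = 0.0565 in edgeR). The call of *LMNA* was lost without control replicate 3 (0.0507) or without 4-OHT replicate 1, 2 or 3 (0.0685, 0.0796 and 0.115). The de novo methyltransferases *DNMT3A* and *DNMT3B* had log2 fold changes of 0.01 and -0.21 (SE 0.055 and 0.14), and *UHRF2* of -0.04 (SE 0.040). *EZH1*, *SUV39H2* and *H2AZ2* had -0.13, -0.18 and -0.09 (SE 0.061, 0.10 and 0.038). *ASF1A* and the remodeler *SMARCA5* had 0.14 and 0.07 (SE 0.058 and 0.041). *HIRA*, which deposits H3.3 outside replication, had -0.15 (SE 0.10), and 66.5% of its exon length is shared with *C22orf39*, so its counts are uncertain. Over the 14 alternative fits *UHRF2* ranged from -0.05 to -0.009, *EZH1* from -0.18 to -0.08 and *SUV39H2* from -0.23 to -0.12. *H2AZ2* ranged from -0.10 to -0.07 and *ASF1A* from 0.09 to 0.17. With 1 library left out *DNMT3A* ranged from -0.04 (without control replicate 1) to 0.06 (without control replicate 3), *DNMT3B* from -0.33 (without 4-OHT replicate 2) to -0.09 (without control replicate 3), *HIRA* from -0.23 (without control replicate 3) to -0.08 (without control replicate 2) and *SMARCA5* from 0.04 (without control replicate 2) to 0.10 (without control replicate 1). The edgeR adjusted p values of these 9 genes were from 0.214 to 0.963, which does not show that their levels were equal in the groups.

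**Figure D2:**
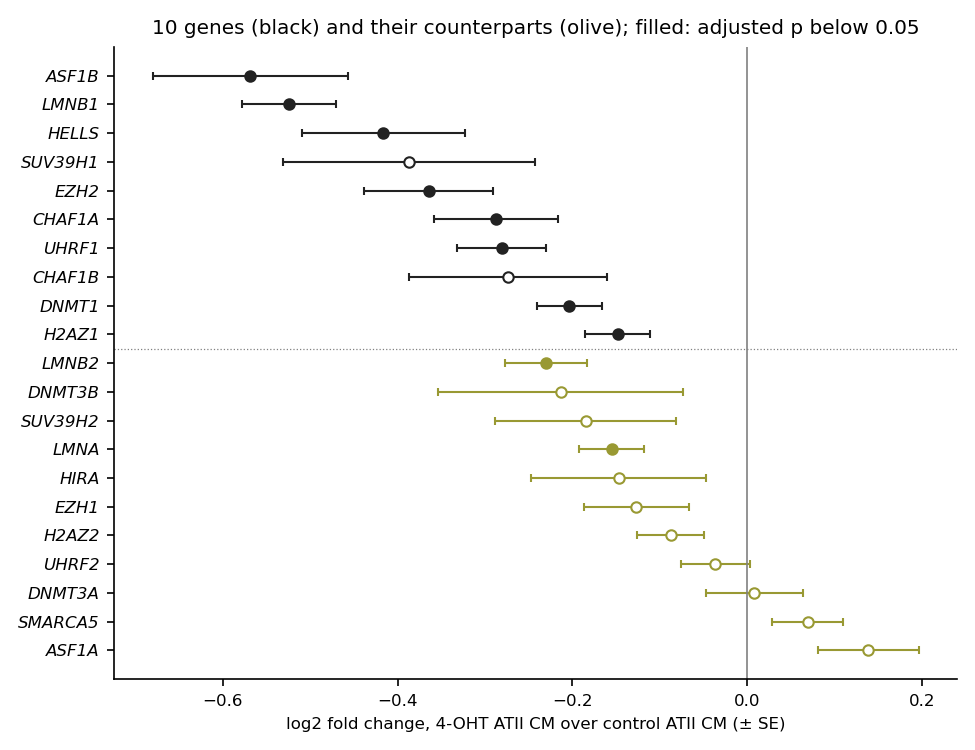
Log2 fold change in 4-OHT ATII CM over control ATII CM (x axis, bars are SE) for the 10 genes (black) and their 11 relatives (olive), filled where the edgeR adjusted p was below 0.05. All 10 black points lie left of 0, from -0.57 for *ASF1B* to -0.15 for *H2AZ1*. Of the 11 olive points 2 are filled, beside 5.72% of all tested genes called in either direction and 2.76% lower.

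The ratio of a gene to its relative within a library does not depend on scaling between libraries, and was taken as a log2 ratio of FPKM. The ASF1 pair moved most. The log2 ratio of *ASF1B* to *ASF1A* was -1.48, -1.26 and -1.69 in control ATII CM, while the libraries of 4-OHT ATII CM had -2.12, -2.40 and -2.05. Every library thus had more *ASF1A*, with a wider gap in the 4-OHT libraries. The difference was -0.72 (exact two-sided permutation p = 0.1, the smallest that 3 libraries against 3 can give). The pairs *HELLS* to *SMARCA5*, *LMNB1* to *LMNA* and *LMNB1* to *LMNB2* differed by -0.49, -0.37 and -0.30, *UHRF1* to *UHRF2* by -0.25, *DNMT1* to *DNMT3A* by -0.21 and *SUV39H1* to *SUV39H2* by -0.21, all with groups that did not overlap and an exact permutation p of 0.1. Groups thus did not overlap in 7 of the 11 pairs, all lower in 4-OHT ATII CM, and over the ratios of every tested gene to the same relatives they did not overlap in 24.8% in either direction and in 6.82% in this direction. In the remaining 4 pairs the groups overlapped. Those were *EZH2* to *EZH1* with -0.24 (exact permutation p = 0.2), *CHAF1A* to *HIRA* with -0.14 (p = 0.4), *H2AZ1* to *H2AZ2* with -0.06 (p = 0.3) and *DNMT1* to *DNMT3B* with 0.006 (p = 1). With 1 library left out *CHAF1A* to *HIRA* ranged from -0.24 (without 4-OHT replicate 3) to -0.04 (without control replicate 3), *H2AZ1* to *H2AZ2* from -0.10 (without 4-OHT replicate 1) to -0.04 (without 4-OHT replicate 2) and *DNMT1* to *DNMT3B* from -0.11 (without control replicate 3) to 0.13 (without control replicate 1). *DNMT3B* was at 4.45 to 6.75 CPM over the 6 libraries.

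**Figure D3:**
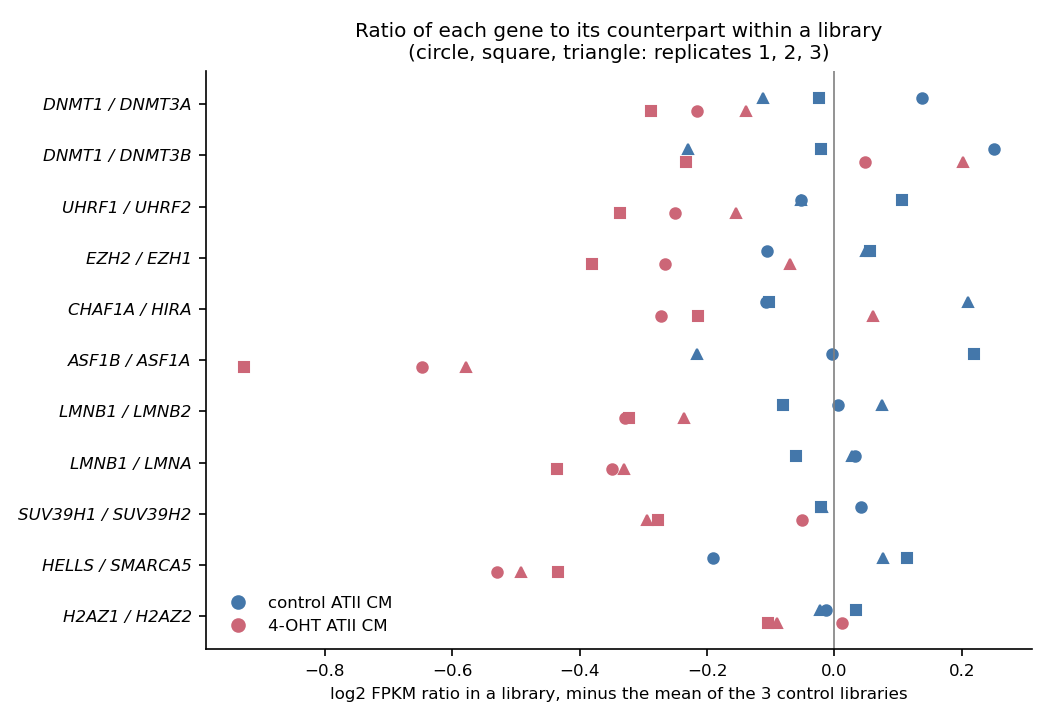
Log2 ratio of the FPKM of each gene to that of its relative in each library, minus the mean of the 3 control libraries (x axis), for control ATII CM (blue) and 4-OHT ATII CM (red). Red and blue points are separate in 7 of the 11 pairs, beside 24.8% of the ratios of all tested genes to these relatives, with the widest gap for *ASF1B* to *ASF1A* (-0.72), and they mix for *DNMT1* to *DNMT3B*.

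Genes of dividing cells were lower in the same libraries. The S and G2/M lists of the Seurat package were used without the 10 genes, since 3 of these (*UHRF1*, *HELLS* and *CHAF1B*) are in its S list. Of 39 tested S phase genes 16 were called lower and 0 higher (median log2 fold change -0.27), and of 54 G2/M genes 45 lower and 0 higher (median -0.47). Over all tested genes 2.76% were called lower and 2.95% higher. Without 4-OHT replicate 2 the S phase count was 7 and the G2/M count 35, while 535 of all tested genes were called (1090 in the main fit). *MKI67*, the proliferation antigen Ki-67, fell from 41.5 ± 4.6 to 24.2 ± 0.90 CPM (log2 fold change -0.78), *TOP2A*, a topoisomerase of mitotic chromosomes, from 98.5 ± 4.1 to 66.7 ± 4.6 CPM (-0.56) and *CDK1*, the mitotic kinase, from 21.6 ± 0.81 to 15.5 ± 0.75 CPM (-0.48). *PCNA*, the sliding clamp that recruits both CAF-1 and DNMT1 to the fork, was at 68.9 ± 2.1 and 63.9 ± 4.3 CPM (log2 fold change -0.11, SE 0.048, edgeR adjusted p = 0.242). Its log2 fold change ranged from -0.16 to -0.06 over the 14 alternative fits, and it was called in 0 of them. The summed level of the 93 tested cycling genes was 3150.0, 3277 and 3148 CPM in control ATII CM and 2729, 2574 and 2684 CPM in 4-OHT ATII CM, and the sum of the 10 genes was 408, 413 and 403 CPM against 350.2, 334 and 348 CPM. Both sums were lower in each 4-OHT library than in any control library. The part of the cycling genes in the fall of the 10 genes was not tested.

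Set against those 93 genes in the same library, the 10 genes divided. *LMNB1* had log2 ratios to the summed counts of -6.57, -6.55 and -6.52 in control ATII CM and of -6.82, -6.81 and -6.79 in 4-OHT ATII CM, a difference of -0.26 with no overlap. *ASF1B* had ratios of -8.40, -8.37 and -8.58 and of -8.70, -8.89 and -8.70, a difference of -0.31 with no overlap. Relative to the cycling genes, both were thus lower in every 4-OHT library than in any control library. *H2AZ1* went the other way, with ratios of -4.47, -4.55 and -4.53 in control ATII CM and of -4.40, -4.39 and -4.43 in 4-OHT ATII CM, a difference of 0.11 with no overlap. For these 3 genes the exact two-sided permutation p was 0.1. Over all tested genes the same ratio did not overlap between groups in 53.8%, with 1.67% lower and 52.2% higher in 4-OHT ATII CM. Most genes thus separated the way *H2AZ1* did and few the way *ASF1B* and *LMNB1* did. The G2/M genes, with log2 fold changes from -0.81 to 0.02 (median -0.47), include falls as large as those of *LMNB1* and *ASF1B* (-0.52 and -0.57). How many of the cycling genes separated in this ratio was not counted. In the other 7 of the 10 genes the groups overlapped, with differences from -0.15 for *HELLS* to 0.06 for *DNMT1* (exact permutation p from 0.2 to 0.9). Among them *UHRF1*, *CHAF1A* and *CHAF1B* were at -0.02, -0.03 and -0.02. The sign for these 3 genes turned with 1 library left out: *UHRF1* was above 0 without control replicate 2, *CHAF1A* without control replicate 3 or 4-OHT replicate 1 and *CHAF1B* without control replicate 2 or 4-OHT replicate 2 or 3, over ranges of -0.04 to 0.01, -0.06 to 0.03 and -0.10 to 0.05. With 1 library left out *DNMT1* ranged from 0.03 (without control replicate 2) to 0.09 (without control replicate 1), *EZH2* from -0.14 (without 4-OHT replicate 3) to -0.05 (without control replicate 3), *SUV39H1* from -0.23 (without 4-OHT replicate 1) to -0.06 (without 4-OHT replicate 3) and *HELLS* from -0.21 (without control replicate 1) to -0.10 (without control replicate 3). With the mean log2 CPM of the cycling genes in place of their sum, *ASF1B* and *LMNB1* differed by -0.20 and -0.16 and *H2AZ1* and *DNMT1* by 0.22 and 0.17, all 4 without overlap. *HELLS* and *SUV39H1* were then at -0.04 and -0.01, while *UHRF1*, *EZH2*, *CHAF1A* and *CHAF1B* were at 0.09, 0.005, 0.08 and 0.09, against the sign given by the sum. The number of genes without overlap was 5 when control replicate 1 was left out and 6 when 4-OHT replicate 1 was left out.

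**Figure D4:**
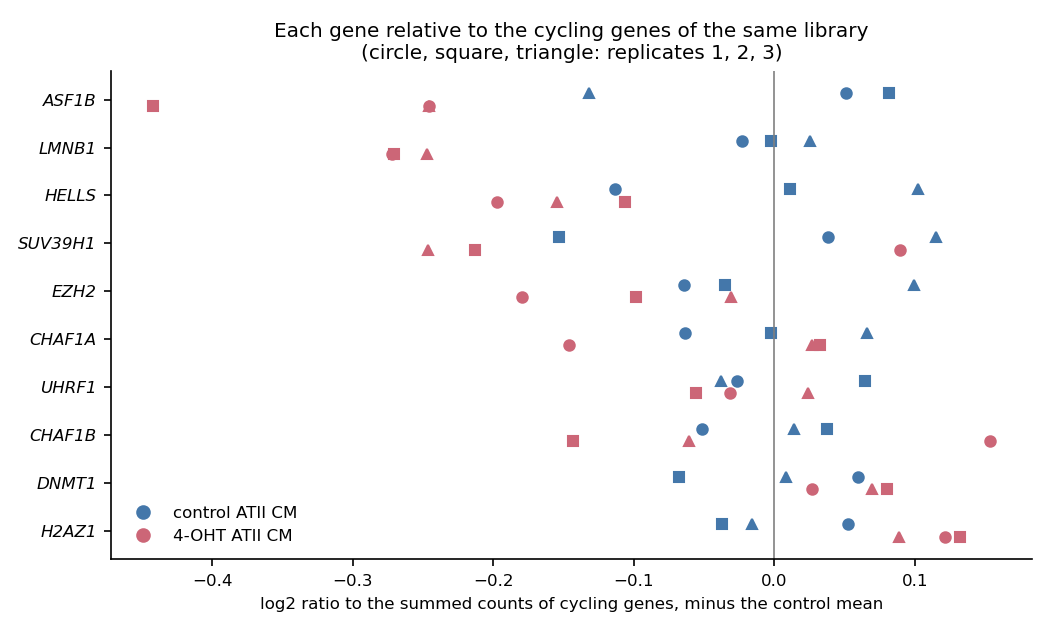
Log2 ratio of each gene to the summed counts of 93 cycling genes of the same library, minus the mean of the 3 control libraries (x axis), for control ATII CM (blue) and 4-OHT ATII CM (red). Red points lie apart on the left for *ASF1B* and *LMNB1* (differences -0.31 and -0.26) and on the right for *H2AZ1* (0.11, the side where 52.2% of all tested genes lie apart), and mix with the blue points for the other 7 genes.

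Most other genes of the same machineries were not called. Of 107 tested genes in 7 lists of chromatin factors, 9 were called lower and 0 higher, which is 8.41% beside 5.72% of all genes, and their median log2 fold change was -0.04. The count was 18 without control replicate 2, 3 without control replicate 3, 1 without 4-OHT replicate 2 and 2 without 4-OHT replicate 3. The same fits called 1528, 672, 535 and 603 of all tested genes, beside 1090 in the main fit. Leaving out genes that are also in the cell cycle lists, 5 of 100 were called, all lower, beside the same 2.76%. In the list of DNA methylation writers, erasers and readers edgeR called 0 of 18 genes (median -0.03), with 3 at an unadjusted p below 0.05, and 2 when control replicate 2 was left out. In the list of other Polycomb proteins it called 0 of 17 (median 0.06, 4 at an unadjusted p below 0.05). Among SNF2 remodelers 0 of 9 were called (median -0.05, 2 at an unadjusted p below 0.05), and 1 without control replicate 2. DESeq2 and limma-voom also called 0 in these 3 lists. For scale, an unadjusted edgeR p of 0.0371 (*H2AZ2*) ranked 2882 among the 19072 tested genes, and one of 0.0537 (*EZH1*) ranked 3439. The unadjusted counts here and below stand beside these ranks. The largest change in the Polycomb list was that of *PHF1*, with a log2 fold change of 1.64 and an SE of 0.74 (edgeR adjusted p = 0.264).

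The called genes of these lists belong to chaperones, heterochromatin, lamina and histone variants. Their counts below stand beside 2.76% of all tested genes called lower. That share does not apply to the counts at an unadjusted p, which stand beside the ranks given above. Of 20 histone chaperones 17 were lower, 10 had an unadjusted p below 0.05 and 2 fell (median -0.11), namely *HJURP*, which loads the centromeric histone CENP-A, with a log2 fold change of -0.57 (edgeR adjusted p = 0.00126), and *NASP*, a carrier of H3 and H4, with -0.15 (0.0259). Of 14 genes of H3 lysine 9 methylation and heterochromatin, 6 were lower and 2 had an unadjusted p below 0.05 (median 0.01). Only 1 fell, a share of 7.14% beside 2.76% of all genes called lower. This was *CBX5*, which encodes heterochromatin protein HP1 alpha, with -0.19 (edgeR adjusted p = 0.0243). Of 13 lamina genes 9 were lower, 6 had an unadjusted p below 0.05 and 3 fell (median -0.09), which were *LMNB2*, *LMNA* and *TMPO*, encoding lamina-associated polypeptide LAP2, with -0.16 (edgeR adjusted p = 0.0462). Of 16 genes for histone variants and H2A.Z exchange 10 were lower, 4 had an unadjusted p below 0.05 and 3 fell (median -0.02). These were *RUVBL2*, an ATPase of several remodelers, with -0.19, *EP400*, an H2A.Z loading ATPase, with -0.42, and *H2AX*, the variant phosphorylated at DNA breaks, with -0.22. *EP400* was at 57.6, 36.5 and 52.8 CPM in control ATII CM and at 36.4, 36.4 and 37.6 CPM in 4-OHT ATII CM, so control replicate 2 lay within the 4-OHT group. *HJURP*, *NASP*, *CBX5* and *TMPO* are also in the S or G2/M list.

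Of these called genes, *HJURP* was called in all 14 alternative fits and the others lost their call in some. Leaving out 1 library, the chaperone count of 2 was 6 without control replicate 2 and 1 without any other library, and the H3 lysine 9 count of 1 was 2 without control replicate 2 and 0 without control replicate 3, 4-OHT replicate 2 or 4-OHT replicate 3. The lamina count of 3 was 0 without 4-OHT replicate 2 and 1 without control replicate 3 or 4-OHT replicate 3. The count of 3 for histone variants was 0 without 4-OHT replicate 2 or 3 and 1 without control replicate 3 or 4-OHT replicate 1. Over all tested genes the count was 803, 1528 and 672 without control replicate 1, 2 and 3. It was 769, 535 and 603 without 4-OHT replicate 1, 2 and 3. *NASP* was called in 8 of the 14 fits, *CBX5* in 10, *TMPO* in 4, *RUVBL2* in 12, *EP400* in 8 and *H2AX* in 8, with largest adjusted p values (edgeR, DESeq2 or limma) from 0.093 for *RUVBL2* to 0.224 for *EP400*.

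At the fork itself, all 11 genes for the clamp, its loader, the helicase, the ligase and the flap endonuclease were lower (median -0.27), 9 had an unadjusted p below 0.05 and 6 fell, beside 2.76% of all tested genes. DESeq2 called 5 of them and limma-voom 6. *MCM5* and *MCM3*, subunits of the replicative helicase, had log2 fold changes of -0.39 and -0.22, and *LIG1*, the ligase that joins Okazaki fragments, -0.40, with edgeR adjusted p values of 0.000913, 0.00844 and 0.00481. Of 20 E2F and DREAM regulators of the cell cycle, 16 were lower (median -0.13), 8 had an unadjusted p below 0.05, 4 fell and 2 rose, beside 2.76% of all genes called lower and 2.95% higher. DESeq2 called 3 of the 20 and limma-voom 4. Without 4-OHT replicate 2 the fork count was 2 and the count of fallen regulators 2, and the latter was 1 without 4-OHT replicate 3. Over all tested genes these fits called 535 and 603, beside 1090 in the main fit. *FOXM1*, *MYBL2* and *E2F1*, activators of cell cycle genes, fell by 0.50, 0.38 and 0.48 on the log2 scale (edgeR adjusted p = 0.000232, 0.00718 and 0.0139). Calls were lost by *MCM3* without 4-OHT replicate 2 (edgeR adjusted p = 0.0523), by *MYBL2* without 4-OHT replicate 3 (0.0519) and by *E2F1* without either of these (at most 0.0801). The 2 that rose were *RBL2*, the p130 protein of the repressor complex, and *TFDP2*, a partner of E2F, with 0.15 and 0.17 (edgeR adjusted p = 0.0462 and 0.0399), and were called in 4 and 5 of the 14 alternative fits. Neither was called by DESeq2 or when any 1 library was left out. Among the S and G2/M genes the smallest p values were those of *RRM2* and *MCM7* in S phase (-0.54 and -0.34) and *TOP2A*, *MKI67* and *CENPF* in G2/M (-0.56, -0.78 and -0.81). Of the 10 fibroblast markers 4 rose, among them *DCN*, *LUM* and *COL3A1* (0.33, 0.29 and 0.18), and *VIM* fell by 0.10 on the log2 scale (called in 8 of the 14 alternative fits), while of the 6 tested epithelial markers 0 were called by edgeR, DESeq2 or limma-voom, with 0 at an unadjusted p below 0.05.

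**Figure D5:**
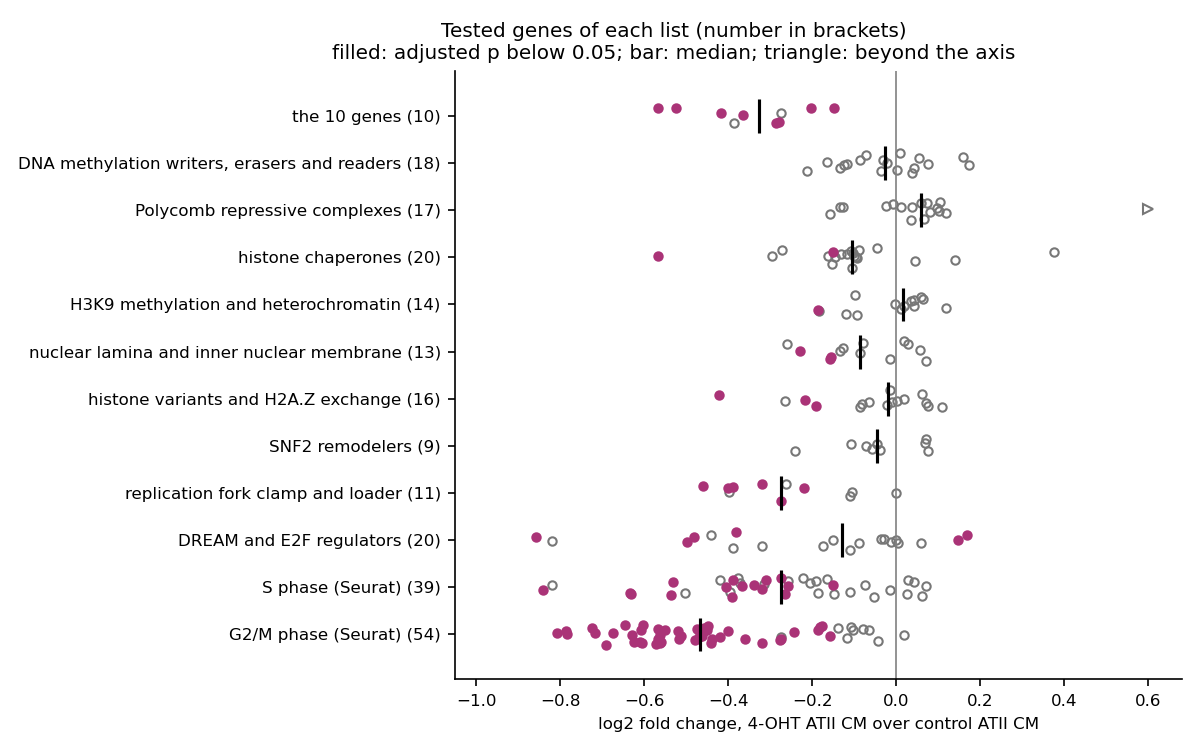
Log2 fold change in 4-OHT ATII CM over control ATII CM (x axis) of each tested gene of the lists, filled where the edgeR adjusted p was below 0.05, with the median of the list as a bar and 1 Polycomb gene beyond the axis as a triangle. The medians of the 10 genes (-0.33) and of the fork, S and G2/M lists (-0.27, -0.27 and -0.47) lie left of 0, and those of the DNA methylation, Polycomb and H3 lysine 9 lists (-0.03, 0.06 and 0.01) lie near it.

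The 5 genes whose levels over the 6 libraries were most like the mean of the 10 genes were *POLE*, *STIL*, *FIGNL1*, *ITGA3* and *CCBE1*. Likeness was the root mean square difference of log2 CPM values centred over the libraries, and was 0.017 for *POLE*, the catalytic subunit of DNA polymerase epsilon, and 0.022 for *STIL*, a centriole duplication factor. It was 0.029 for *FIGNL1*, an ATPase of recombination repair, and 0.031 and 0.033 for *ITGA3*, an integrin chain, and *CCBE1*, a secreted matrix protein. Their log2 fold changes were from -0.30 to -0.38, around the median of -0.33 of the 10 genes. This closeness follows from the choice by profile over the same libraries.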

How the data were processed

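Gene counts of 6 RNA-Seq libraries of MRC5 cells, 3 in control ATII CM and 3 in 4-OHT ATII CM, were analysed, with groups taken from the sample labels. The construct carried by the epithelial line is not reported here. The authors trimmed paired-end reads, mapped them to GRCh38 and deposited raw counts per gene without normalization, and the submitters' processing notes name HISAT2 2.1.0 and featureCounts 1.6.5. The deposited table also gives each gene's merged exon length in bases, which was used for FPKM. The annotation release, the strand setting and the treatment of reads with several matches are not given in the sources used here. Counts of 45 identifiers listed on both X and Y were added up, leaving 58676 identifiers. Genes with at least 10 counts over the 6 libraries were normalized by TMM and tested with the quasi-likelihood test of edgeR 4.0.16 in R 4.3.3, with group as the only term and Benjamini-Hochberg adjustment over 19072 genes (threshold 0.05). DESeq2 1.42.0, limma 3.58.1 with voom, other scalings and filters, a replicate block, equal depth and leaving out each library were alternatives. Centred profiles used log2 CPM with a prior count of 2, and ratios within a library were tested by exact two-sided permutation. Fits were tested on simulated counts.

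The 10 genes, their relatives and the gene lists were chosen with earlier results of these data known. Genes named are the 10, their relatives, in each list up to 3 called genes with the smallest p in each direction, 4 cycling markers (*MKI67*, *TOP2A*, *PCNA* and *CDK1*) and the 5 genes with the nearest profile. *PHF1*, markers with few counts and genes of overlapping exons were named after their values were seen. Promoter sequences are from RefSeq on GRCh38.p14, which had windows for all 10 genes.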

Additional observations from a re-analysis of the deposited data

How the results depend on the processing

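Of the 10 genes, 8 were called by DESeq2, by limma-voom, with other scalings or count filters, with the replicate block and at equal depth, and 4 to 8 when 1 library was left out. The count over all genes was 1090, from 954 (DESeq2) to 1601 (no count filter) under the other settings and from 535 (without 4-OHT replicate 2) to 1528 (without control replicate 2) with 1 library left out. For the chromatin lists the count of 9 was from 6 (equal depth) to 13 (no count filter) and from 1 to 18 with 1 library left out. The 7 pairs without overlap were 7 to 9 with 1 library left out, and the 3 genes without overlap relative to the cycling genes were 3 to 6. The log2 fold change of *DNMT3A*, which was not called, was 0.0083 and changed sign at equal depth (-0.011) and in 2 of the 6 fits without 1 library, which ranged from -0.042 (without control replicate 1) to 0.064 (without control replicate 3). The causes were not tested.

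Same-numbered libraries did not deviate together (r = -0.01, -0.10 and -0.09 over 9691 genes), so the numbers were not taken to pair the samples. With the replicate block 985 genes, 8 of the 10 and 9 chromatin genes were called, *TMPO*, *RBL2*, *TFDP2* and *VIM* lost their call, and paired differences of the ratios gave the same values with an exact sign-flip permutation p of 0.25 or more, the smallest that 3 pairs allow.

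An index of the mean log2 CPM of the cycling genes in place of their summed counts was chosen after seeing the data. With it 4 genes (*ASF1B*, *LMNB1*, *H2AZ1* and *DNMT1*) had groups that did not overlap, *UHRF1*, *EZH2*, *CHAF1A* and *CHAF1B* changed sign to 0.09, 0.005, 0.08 and 0.09, and *ASF1B* moved from -0.31 to -0.20. The genes with fewest counts, *SUV39H1* (552 in all) and *CHAF1B* (978), had the largest standard errors of the 10.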
